A study of Rattus norvegicus with 10 samples.

Results

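The 10 genes described here are the tissue inhibitors of metalloproteinases Timp1, Timp2, Timp3 and Timp4, the matrix metalloproteinases Mmp2, Mmp9 and Mmp14, the plasminogen activators Plat and Plau, and the receptor Plaur. They were taken by name from a table of 32041 RNA records, and each of the 10 symbols matched 1 record. Messenger RNA was counted in the left hippocampal CA3 and dentate gyrus of adult male Sprague-Dawley rats, a piece that the labels call dorsal hippocampus. The TBI group was 5 rats that received lateral fluid percussion, a pressure pulse on the exposed dura. The study's methods give the mean impact as 3.32 atm, and values for these 5 rats are not stated. Anaesthesia was sodium pentobarbital and chloral hydrate in a mixture with magnesium sulphate, propylene glycol and ethanol. The sham group was 5 rats with the same anaesthesia and 5 mm craniectomy but no pulse. The rats weighed 330 to 371 g at surgery, their age is not given in the labels, and tissue was taken 3 months later under isoflurane. Each library came from 1 rat. The injury is a model of post-traumatic epilepsy. According to the study's methods, the TBI rats had no EEG monitoring and showed no seizures on handling. Earlier data cited there put epilepsy at this time in only a minority of such rats, so the TBI group is not a group of rats known to be epileptic.

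Matrix metalloproteinases are zinc-dependent enzymes that cut extracellular matrix, cell surface proteins and growth factor precursors, and TIMPs bind and block their active sites. Plasminogen activators convert plasminogen into plasmin, a broad serine protease that degrades fibrin and matrix proteins and can activate some metalloproteinase precursors. In the hippocampus both systems are known for roles in synaptic plasticity, in the perineuronal matrix and in the response of glia and vessels to injury.

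None of the 9 genes with enough counts to test passed after adjustment, and the 2 that stood out most were inhibitors that differed in opposite directions. Timp1 had a higher mean in TBI rats, by 1.76-fold in the fitted model, and Timp4 had a lower mean, at 0.829 of the sham level, except under scaling by total counts, where its log2 difference was 0.22. Of these 9 members, 0 had an adjusted p under 0.05 (quasi-likelihood test of edgeR, Benjamini-Hochberg), against 0% of the 22431 RNA records tested. DESeq2, limma with voom and the exact test of edgeR also gave 0 members, and of all records DESeq2 gave 3 and the others 0. At an unadjusted p under 0.05 there were 4 of 9 members, against 7.89% of all records. Timp1, Plat and Mmp2 were higher in TBI rats, where 4.89% of all records had such a p, and Timp4 was lower, where 3.00% did. The groups did not overlap for 1 member, Timp4, against 0.923% of all records. In sign, 7 of the 9 tested members were higher in TBI rats and 2, Timp4 and Plau, were lower, whereas all 9 were higher under scaling by total counts. The median log2 difference of the 9 was 0.24, against -0.01 over all records tested. The members were chosen as a functional family with earlier results of these data known, and their values come from the same 10 rats. These counts are therefore not independent of one another or of those earlier results.

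The libraries held 23425817 to 31671838 counts. Ribosomal RNA took 59.0% of the counts of sham rat 4 and 58.5% of those of sham rat 5, against 12.5% to 26.2% in the other 8 rats, which left these 2 sham libraries the fewest counts on other RNA. Member values are therefore also given with the ribosomal share as a covariate and without these 2 rats. Levels are CPM, counts scaled to a common TMM-adjusted library size, and differences are log2 ratios of TBI over sham with their standard error (SE). Because the tissue was sampled in bulk, fewer cells of a type and less RNA per cell cannot be told apart. Markers of dentate granule cells summed to 54.5 to 190 CPM in sham rats and 74.8 to 185 in TBI rats. Those of CA3 pyramidal cells summed to 1647 to 2036 and 1515 to 2018 CPM. Markers of both regions named in the study's methods were thus present, but single genes made up much of each sum. C1ql2 had 122 of the 190 CPM in sham rat 5, and Nptx1 had 1481 of the 2036 CPM in sham rat 1. Of the same lists, Tdo2 and Iyd were too low to test, and Dsp had no record. Sham rat 1 was the lowest in granule cell markers. Markers of CA1, a field that the dissection was not meant to hold, ranged from 54.0 to 112 CPM in sham rats and from 45.4 to 384 in TBI rats.

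**Figure D1:**
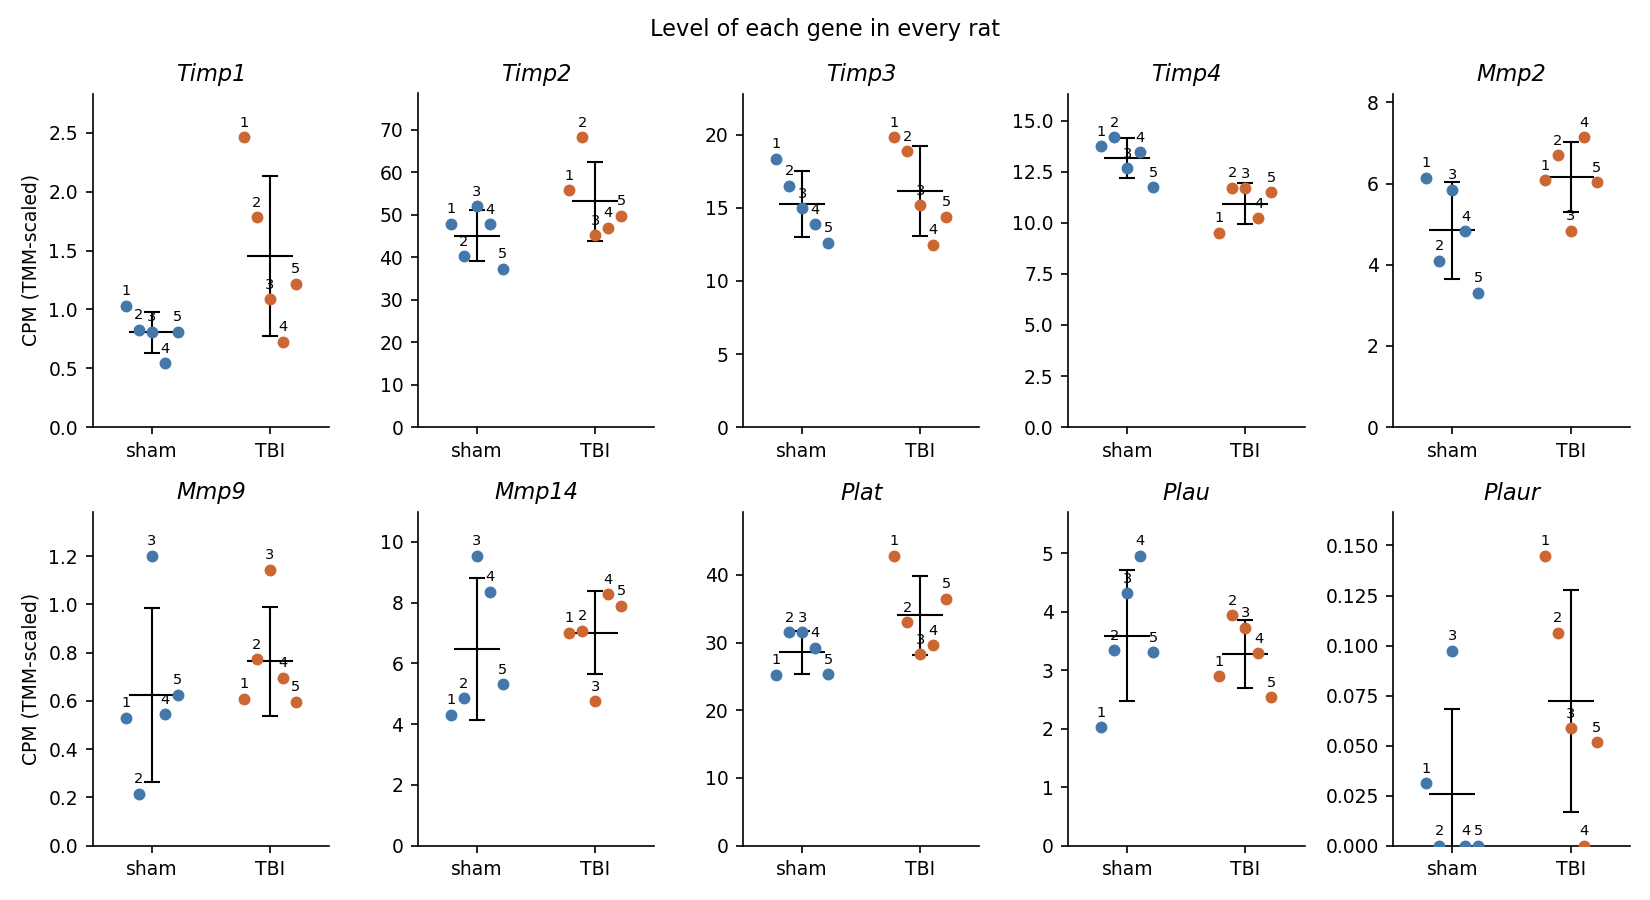
CPM of each of the 10 genes in every rat, with 1 point per rat numbered by its replicate, the mean as a horizontal bar and the SD as whiskers (n = 5 per group); each panel has its own linear axis from 0. On this scale the groups are apart for Timp4 (by total counts they overlap) and overlap for the other 9 genes, and 4 of the 5 TBI rats lie above every sham rat for Timp1.

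Timp1, a secreted inhibitor that is known to be induced in reactive astrocytes and other cells by inflammatory cytokines, was scarce. Sham rats 1 to 5 had 1.03, 0.827, 0.812, 0.544 and 0.812 CPM, and TBI rats 1 to 5 had 2.46, 1.78, 1.09, 0.727 and 1.22 CPM. All TBI rats but rat 4 were above the highest sham rat, and TBI rat 4 was below the sham median. The group means were 0.805 CPM ± 0.173 (SD, n = 5) without and 1.46 CPM ± 0.680 (SD, n = 5) with injury. The log2 difference was 0.82 (SE 0.288), with an unadjusted p of 0.0111 and an adjusted p of 0.511 by edgeR, and a two-sided exact permutation test over the rats gave p = 0.0635. These levels rest on 8 to 33 counts per sham library and 23 to 85 per TBI library. The unadjusted p stayed under 0.05 in all 10 fits that left out 1 rat, with log2 differences from 0.55 to 0.98. It was 0.0590 with the ribosomal RNA covariate (log2 difference 0.74) and 0.0515 without sham rats 4 and 5 (log2 difference 0.71).

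Reactive astrocyte markers differed in the direction of Timp1. Their sum over the 8 listed genes ran from 817 to 1712 CPM in sham rats and from 1031 to 2497 in TBI rats. Gfap made up most of this sum, with 776 of 817 CPM in sham rat 1 and 2308 of 2497 in TBI rat 1. The sum therefore ranks the rats mainly by Gfap. Of the 8 genes, 6, Gfap, Vim, Lcn2, Cd44, S1pr3 and Cp, were higher with an unadjusted p under 0.05 (4.89% of all records). A seventh, Serpina3n, was lower with such a p and had 1.95 to 3.62 CPM in sham rats 3, 4 and 5 against 0.0798 to 0.235 in the other 7 rats. Gfap, Vim, Cd44, S1pr3 and Cp are on the list of altered genes that the study drew from this model's messenger RNA libraries. Their directions are thus not independent evidence. TBI rats 1 and 2 were the highest for the summed markers and also for Timp1. The order of the other rats differed: sham rat 3 had 1628 CPM of Gfap, the intermediate filament of astrocytes, with Timp1 near the sham median, and TBI rat 4 had 1704 CPM of Gfap with less Timp1 than all sham rats but 1. Summed CA1 markers were 224, 384, 108, 45.4 and 152 CPM in TBI rats 1 to 5, so they too were highest in rats 1 and 2, followed, as for Timp1, by rats 5, 3 and 4. Of the 4 CA1 markers, 2, Wfs1 and Man1a1, had an unadjusted p under 0.05, both higher in TBI rats (4.89% of all records). Wfs1 is also on the study's list. Summed markers of microglia and macrophages ran from 148 to 239 CPM in sham rats and from 178 to 255 in TBI rats. Of these 8 markers, 2, Aif1 and C1qa, were higher with an unadjusted p under 0.05 (4.89% of all records). The part of astrocyte reactivity, CA1 tissue or microglia in the Timp1 difference was not tested.

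Timp4, an inhibitor with restricted expression that includes brain and heart, was lower in every TBI rat than in any sham rat. Sham rats 1 to 5 had 13.7, 14.2, 12.7, 13.5 and 11.7 CPM, and TBI rats 1 to 5 had 9.51, 11.7, 11.7, 10.2 and 11.5 CPM. The gap between the groups was narrow, since sham rat 5 and TBI rat 2 both round to 11.7 CPM. The means were 13.2 CPM ± 0.965 (SD, n = 5) and 10.9 CPM ± 1.00 (SD, n = 5), and the variation among rats of a group was small, with a coefficient of variation of 7.33% in sham rats and 9.17% in TBI rats. The log2 difference was -0.27 (SE 0.0928), with an unadjusted p of 0.00896 and an adjusted p of 0.496 by edgeR. The two-sided exact permutation p was 0.00794, the smallest that 252 relabellings of the rats can give. Any gene whose groups do not overlap gets this p, so it restates the separation and is not further support. Each library held 188 to 444 counts of this gene. The unadjusted p was under 0.05 in all 10 fits that left out 1 rat (log2 differences from -0.31 to -0.23), with the ribosomal RNA covariate (-0.35, unadjusted p = 0.00746 by edgeR) and without sham rats 4 and 5 (-0.30, unadjusted p = 0.0125 by edgeR). Under scaling by total counts, which takes ribosomal RNA as part of the library and raises the median of all records to 0.50, the Timp4 difference was 0.22, below that median but of the opposite sign.

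The genes Timp1, Timp3 and Timp4 lie inside the spans of the synapsin genes Syn1, Syn3 and Syn2 in the RefSeq gene table, an arrangement that is old in vertebrates. No source says whether strand was used in counting, so reads of a TIMP and of unspliced RNA of its host gene cannot be told apart. Syn1, a synaptic vesicle protein, had 340 CPM ± 33.8 (SD, n = 5) without and 344 CPM ± 51.5 (SD, n = 5) with injury, a log2 difference of 0.02 (SE 0.100). Syn2 had 203 CPM ± 31.0 (SD, n = 5) and 180 CPM ± 23.5 (SD, n = 5), a log2 difference of -0.17 (SE 0.106), with an unadjusted p of 0.117 by edgeR. The log2 difference of Syn3 was -0.02 (SE 0.180). The Syn2 and Timp4 differences thus had the same sign, and the part of Syn2 reads in the Timp4 values was not tested. These 3 genes were looked at after the values of the members had been seen.

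Promoter sequences of the pair of TIMPs with the clearest differences are given for the letters of known control elements near their starts. They come from the RefSeq promoter table of the rat build GRCr8, which had 6 of the 10 members (the 4 TIMPs, Plau and Plaur). Letters searched on both strands of the 250 bases before each start were TGANTCA for AP-1, GGGCGG for the GC box, TGACGTCA for CRE, AGGAAG for PEA3 (bound by ETS factors) and TATAAA for the TATA box. The letters TTCNNNGAA stood for STAT, and none of the 6 contains another. Capitals mark PEA3 matches. For Timp1 only the 30 bases around each match are shown, at chrX:3771335-3771364 and chrX:3771199-3771228 on the minus strand, because the window lies inside the longest model of the gene. For Timp4 the 104 bases outside the gene model are shown, at chr4:149985351-149985454 on the minus strand.
Timp1, match starting 230 bases before the start: ttcaaggccgccAGGAAGgaatgtgcatga
Timp1, match starting 94 bases before the start: agtaatgcgtccAGGAAGcctggaggcagt
Timp4: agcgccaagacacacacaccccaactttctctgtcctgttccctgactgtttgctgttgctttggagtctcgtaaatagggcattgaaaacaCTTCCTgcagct

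The PEA3 letters stood in 3 of the 6 member promoters, Timp1, Timp4 and Plaur, against 29.4% of the 27457 promoters in the table. In Timp4 they were on the reverse strand, 158 bases before the start. The GC box letters stood in 4 of 6, Timp1, Timp2, Timp3 and Plau, against 32.4% of all promoters, and Timp4 had none in its window. The Timp1 window had 61.2% G and C and the Timp4 window 50.8%. AP-1 letters were in 1 of 6 (Plaur), against 6.36%, and STAT, CRE and TATA box letters were in 0 of 6, against 7.52%, 1.70% and 13.1%. A match describes these letters only, and no binding was measured here.

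Timp2, the inhibitor that also takes part in the activation of pro-MMP2 on the cell surface, had a higher mean in TBI rats with a wide overlap. Sham rats 1 to 5 had 47.9, 40.2, 52.0, 47.8 and 37.3 CPM, and TBI rats 1 to 5 had 55.7, 68.3, 45.2, 46.9 and 49.7 CPM. TBI rats 1 and 2 were above every sham rat, and the other TBI rats were within the sham range. The fitted difference was 0.24 on the log2 scale (SE 0.114), with an unadjusted p of 0.0520 and an adjusted p of 0.634 by edgeR. Over the 10 fits that left out 1 rat it ran from 0.13 to 0.30, with an unadjusted p under 0.05 by edgeR in 3. The lowest was without TBI rat 2, the highest rat for this gene, and the highest without sham rat 3. It was 0.17 in the covariate fit and 0.19 without sham rats 4 and 5. Without the filter it was 0.25 (unadjusted p = 0.0385 by edgeR). Scaling by total counts, which raises the median of all records to 0.50, gave 0.73 (unadjusted p = 0.0226 by edgeR).

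Timp3, the inhibitor that binds to the matrix and also blocks several ADAM proteases, ran from 12.6 to 18.4 CPM in sham rats and from 12.5 to 19.8 CPM in TBI rats. Its log2 difference was 0.07 (SE 0.128, unadjusted p = 0.576 by edgeR), and it turned to -0.06 with the ribosomal RNA covariate and to -0.04 without sham rats 4 and 5. The sign for Timp3 was thus not stable. The 4 TIMPs had log2 differences of 0.82, 0.24, 0.07 and -0.27, and differences between these values were not tested.

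**Figure D2:**
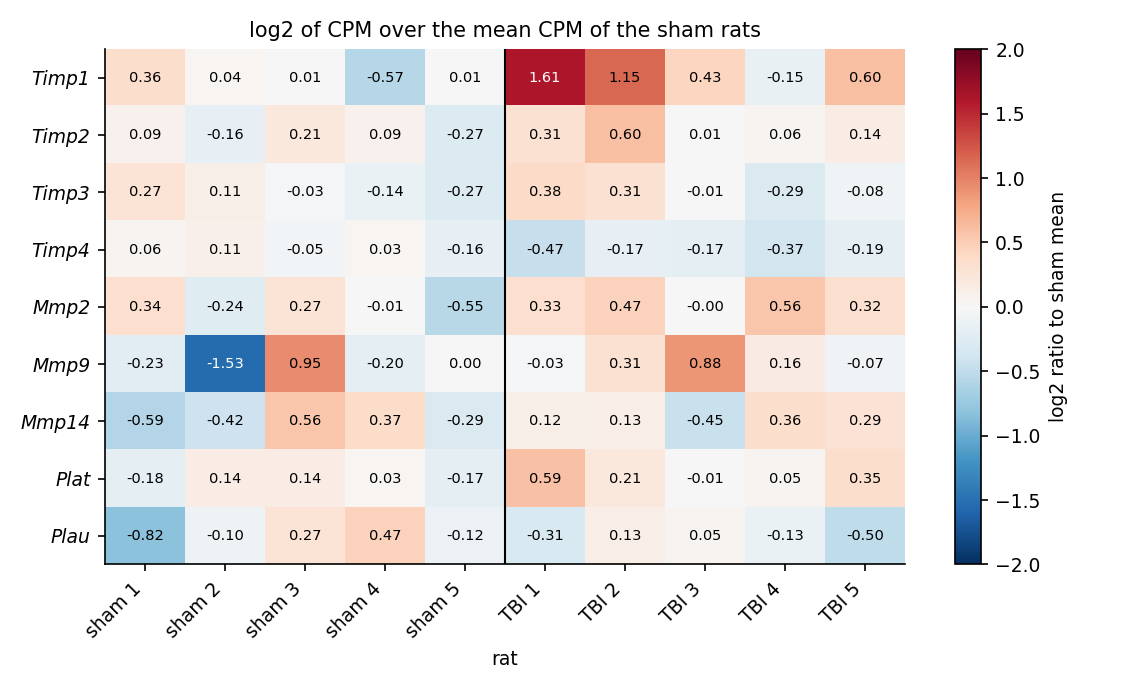
log2 of each rat's CPM over the mean CPM of the sham rats, for the 9 tested members (rows) in the 10 rats (columns; the vertical line parts sham from TBI rats), with red for higher and blue for lower values and each value printed in its cell. On this TMM scale, unlike total count scaling, Timp4 is below the sham mean in every TBI rat, TBI rats 1 and 2 have the highest Timp1 values, and sham rat 3 is the highest rat for Mmp9 and Mmp14.

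Among the enzymes, Mmp2 (gelatinase A, made by astrocytes, vessels and fibroblasts) had sham values of 6.15, 4.10, 5.85, 4.83 and 3.31 CPM for rats 1 to 5, and TBI values of 6.09, 6.71, 4.84, 7.15 and 6.03 CPM. All 5 TBI rats were above the sham median but only 2 of them, rats 2 and 4, above the highest sham rat. The means were 4.85 CPM ± 1.19 (SD, n = 5) and 6.16 CPM ± 0.871 (SD, n = 5). The log2 difference was 0.32 (SE 0.151), with an unadjusted p of 0.0462 and an adjusted p of 0.626 by edgeR, and the two-sided exact permutation p was 0.0873. This call was weak: p was under 0.05 in 3 of the 10 fits that left out 1 rat, and the log2 difference was 0.17 (unadjusted p = 0.371 by edgeR) with the ribosomal RNA covariate and 0.20 (unadjusted p = 0.216 by edgeR) without sham rats 4 and 5. No listed meningeal or vascular marker was at 0 in every rat. Summed meningeal and fibroblast markers ran from 9.81 to 23.4 CPM in sham rats and from 16.3 to 27.8 in TBI rats. Of these 8 genes, 3 were higher at an unadjusted p under 0.05 (4.89% of all records). Lum was lower in sign (log2 difference -0.95, unadjusted p = 0.199 by edgeR) and made up 9.93 of the 23.4 CPM in sham rat 1. Summed vascular markers ran from 72.9 to 94.2 CPM in sham rats and from 81.3 to 98.0 in TBI rats. Sham rat 5 was the lowest rat for both marker sums and for Mmp2, and the part of such cells in the Mmp2 difference was not tested.

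Mmp14, the membrane-bound metalloproteinase that activates pro-MMP2, had sham values of 4.31, 4.85, 9.55, 8.36 and 5.31 CPM and TBI values of 7.02, 7.08, 4.75, 8.29 and 7.90 CPM for rats 1 to 5. The sham rats fell on both sides of most TBI rats, and TBI rat 3 was within the low sham values. This gave a log2 difference of 0.12 (SE 0.224), with an unadjusted p of 0.598 by edgeR. With the ribosomal RNA covariate it was 0.19, without sham rats 4 and 5 it was 0.17, and without sham rat 1 it was -0.01. Variation was greater among sham rats, with a coefficient of variation of 36.0%, than among TBI rats, with 19.6%, and this difference in spread was not tested.

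Mmp9, gelatinase B, which is induced by neuronal activity and injury, was scarce, with 6 to 39 counts per library. Sham rats 1 to 5 had 0.531, 0.216, 1.20, 0.544 and 0.625 CPM, and TBI rats 1 to 5 had 0.609, 0.772, 1.14, 0.696 and 0.596 CPM. Sham rat 3 was the highest of all 10 rats. The log2 difference was 0.26 (SE 0.335), with an unadjusted p of 0.447 by edgeR, and without sham rat 3 it was 0.72 (unadjusted p = 0.0369 by edgeR). Its value was 0.22 in the covariate fit and 0.22 without sham rats 4 and 5. Sham rat 2 was the lowest, and without it the log2 difference was 0.02, while without TBI rat 3 it was 0.07. The value thus moved over a range from 0.02 to 0.72 with which single rat was left out, and with all rats the difference was smaller than its SE.

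Plat, tissue plasminogen activator, which in the hippocampus is released by neurons and glia, had sham values of 25.3, 31.5, 31.5, 29.2 and 25.3 CPM and TBI values of 42.9, 33.0, 28.3, 29.6 and 36.5 CPM for rats 1 to 5. TBI rats 1, 2 and 5 were above every sham rat, and TBI rats 3 and 4 were within the sham range. The means were 28.6 CPM ± 3.14 (SD, n = 5) and 34.0 CPM ± 5.87 (SD, n = 5). Between the groups the log2 difference was 0.25 (SE 0.109), with an unadjusted p of 0.0329 and an adjusted p of 0.599 by edgeR and a two-sided exact permutation p of 0.0952. It kept p under 0.05 in 5 of the 10 fits that left out 1 rat, and was 0.16 (unadjusted p = 0.129 by edgeR) without TBI rat 1. With the ribosomal RNA covariate it was 0.21 (unadjusted p = 0.164 by edgeR), and without sham rats 4 and 5 it was 0.22 (unadjusted p = 0.118 by edgeR).

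Plau, urokinase plasminogen activator, ran from 2.03 to 4.96 CPM in sham rats and from 2.54 to 3.94 CPM in TBI rats, so that the TBI values lay within the sham range. Its log2 difference was -0.11 (SE 0.195), with an unadjusted p of 0.588 by edgeR, and it turned to 0.08 with the ribosomal RNA covariate and to 0.03 without sham rats 4 and 5. No direction was therefore seen for Plau.

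Plaur, the receptor that holds urokinase at the cell surface, was hardly detected. The sham libraries held 1, 0, 3, 0 and 0 counts and the TBI libraries 5, 4, 2, 0 and 2 counts. This total of 17 was below the minimum of 44 used for testing. The summed counts were 4 in sham rats and 13 in TBI rats, a ratio of 2.24 per adjusted library size with an exact 95% interval from 0.691 to 9.41, which covers counting error only. A difference in Plaur was not detectable at this depth. Without the filter, the fitted log2 difference was 1.09 with an unadjusted p of 0.203 by edgeR.

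**Figure D3:**
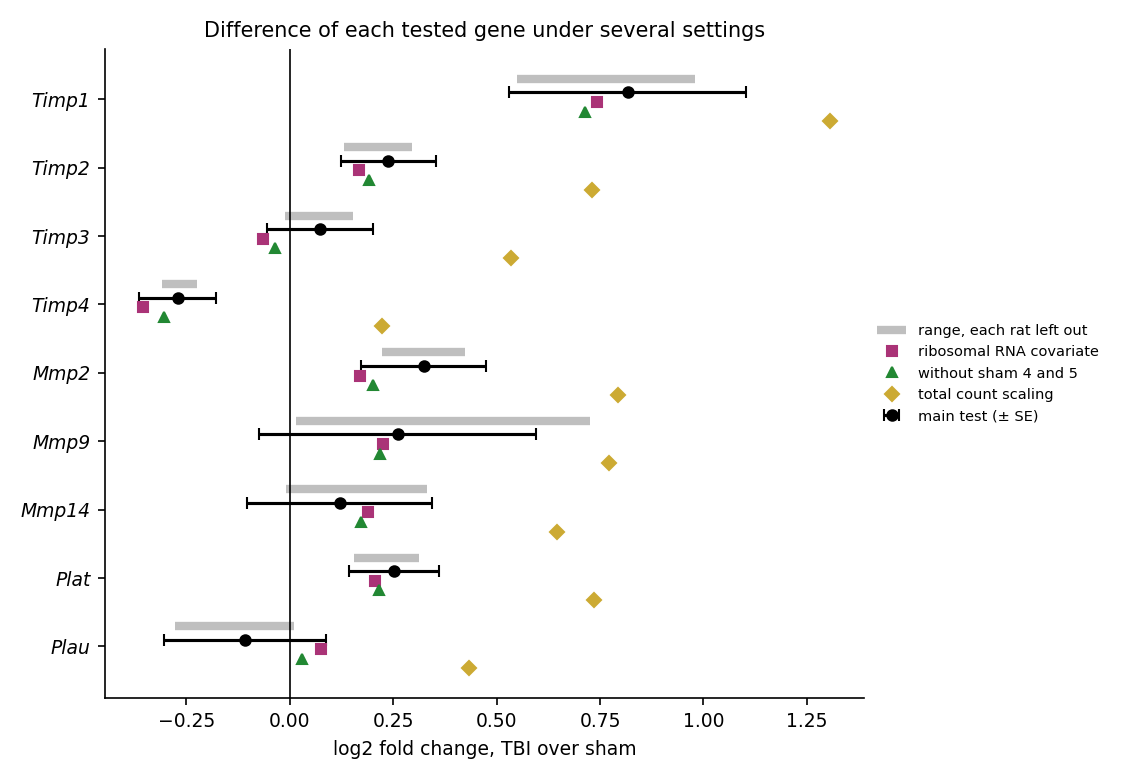
log2 fold change, TBI over sham, of the 9 tested members. Black points with bars give the main test ± SE, other symbols give the ribosomal RNA covariate, the fit without sham rats 4 and 5 and scaling by total counts, and grey bands span the 10 fits that left out 1 rat. Timp1 stays above 0 in every setting drawn, Timp4 stays below 0 in all but total count scaling (0.22), and Timp3, Mmp14 and Plau cross 0.

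The other genes of extracellular proteolysis were taken from lists of 74 genes, of which 64 had a record and 54 were tested. These lists, like the members, were drawn up with earlier results of these data known. An unadjusted p under 0.05 was found for 8 of the 54 (14.8%, against 7.89% of all records), 6 higher and 2 lower in TBI rats. After adjustment 0 of the 54 had a p under 0.05 in edgeR's quasi-likelihood or exact test, DESeq2 or limma with voom, and the groups overlapped for all 54. Their median log2 difference was 0.07. The count was 6 with the ribosomal RNA covariate (4.42% of all records in that fit), 8 without sham rats 4 and 5 (5.60% of all records), and 5 without TBI rat 1 (7.62% of all records). A2m, Mrc2, Prss23 and Prss35 are on the list of altered genes that the study drew from this model's messenger RNA libraries, so their directions are not independent evidence. The study's methods give fewer control rats for messenger RNA than the labels do, so which sham rats that list rests on is not settled.

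Of the other metalloproteinases 9 were tested, 6 higher and 3 lower in sign, and 0 had an unadjusted p under 0.05 (7.89% of all records). Their log2 differences ran from -0.45 to 0.35. Mmp17, a glycosylphosphatidylinositol-anchored enzyme and the one with most counts, had 97.2 CPM ± 10.3 (SD, n = 5) without and 106 CPM ± 9.53 (SD, n = 5) with injury, a log2 difference of 0.12 (SE 0.0874). The collagenases and stromelysins Mmp3, Mmp8, Mmp10 and Mmp13 were too low to test. Of the ADAM and ADAMTS proteases, which shed membrane proteins and cut proteoglycans, 11 were tested and 0 had such a p, with log2 differences from -0.31 to 0.37. Adam15, with most counts, had a log2 difference of 0.09 (SE 0.0910).

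Among activators, anchors and other inhibitors of metalloproteinases, 3 of 9 tested genes had an unadjusted p under 0.05, all higher in TBI rats. Over all records tested, 4.89% were higher with such a p. Lcn2, a lipocalin that binds and stabilizes MMP9, had 0.420 CPM ± 0.130 (SD, n = 5) without and 0.895 CPM ± 0.377 (SD, n = 5) with injury, a log2 difference of 1.07 (SE 0.326, unadjusted p = 0.00392, adjusted p = 0.484 by edgeR). A2m, the plasma protease trap alpha-2-macroglobulin, had 14.5 CPM ± 3.77 (SD, n = 5) and 25.3 CPM ± 10.4 (SD, n = 5), a log2 difference of 0.79 (SE 0.314, unadjusted p = 0.0329 by edgeR). Pcsk6, a proprotein convertase of the furin family, had a log2 difference of 0.29 (SE 0.102, unadjusted p = 0.0113 by edgeR). Lcn2 is also in the reactive astrocyte list above. Spock2, a brain proteoglycan with most counts of this list, had a log2 difference of -0.11 (SE 0.0954).

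On the plasminogen side, 18 genes were tested, with 2 higher and 1 lower at an unadjusted p under 0.05. Of all records, 4.89% were higher and 3.00% lower with such a p. Anxa2, part of a cell surface receptor for Plat and plasminogen, had 4.07 CPM ± 0.310 (SD, n = 5) without and 5.77 CPM ± 1.48 (SD, n = 5) with injury, a log2 difference of 0.51 (SE 0.158, unadjusted p = 0.00451, adjusted p = 0.485 by edgeR). Mrc2, an endocytic collagen receptor that associates with the urokinase receptor, had 9.76 CPM ± 2.84 (SD, n = 5) and 16.7 CPM ± 4.63 (SD, n = 5), a log2 difference of 0.75 (SE 0.221, unadjusted p = 0.00563, adjusted p = 0.487 by edgeR). Vldlr, a receptor of the LDL receptor family that clears protease and inhibitor complexes and binds reelin, had a log2 difference of -0.18 (SE 0.0790, unadjusted p = 0.0336 by edgeR). Lrp1, the clearance receptor with most counts, had 620 CPM ± 47.0 (SD, n = 5) and 615 CPM ± 174 (SD, n = 5), and its TBI value was lowest in rat 5, at 318 CPM. Of serpins that block serine proteases in brain, Serpine2 (protease nexin-1) had a log2 difference of 0.07 (SE 0.0974) and Serpini1 (neuroserpin) one of -0.14 (SE 0.0853), with no call for either. Plg, plasminogen itself, had a mean of 4.7 counts per library.

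Of 7 genes listed as brain serine proteases outside the plasminogen system, 1 was higher and 1 lower at an unadjusted p under 0.05. In either direction, 7.89% of all records had such a p. Protease activity was not measured. Prss23 had 32.7 CPM ± 7.48 (SD, n = 5) without and 43.9 CPM ± 9.48 (SD, n = 5) with injury, a log2 difference of 0.43 (SE 0.169, unadjusted p = 0.0256 by edgeR). Prss35 had 10.2 CPM ± 1.42 (SD, n = 5) and 7.38 CPM ± 1.29 (SD, n = 5), a log2 difference of -0.48 (SE 0.128, unadjusted p = 0.00128, adjusted p = 0.477 by edgeR). Htra1, with most counts of this list, had a log2 difference of -0.08 (SE 0.0814).

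**Figure D4:**
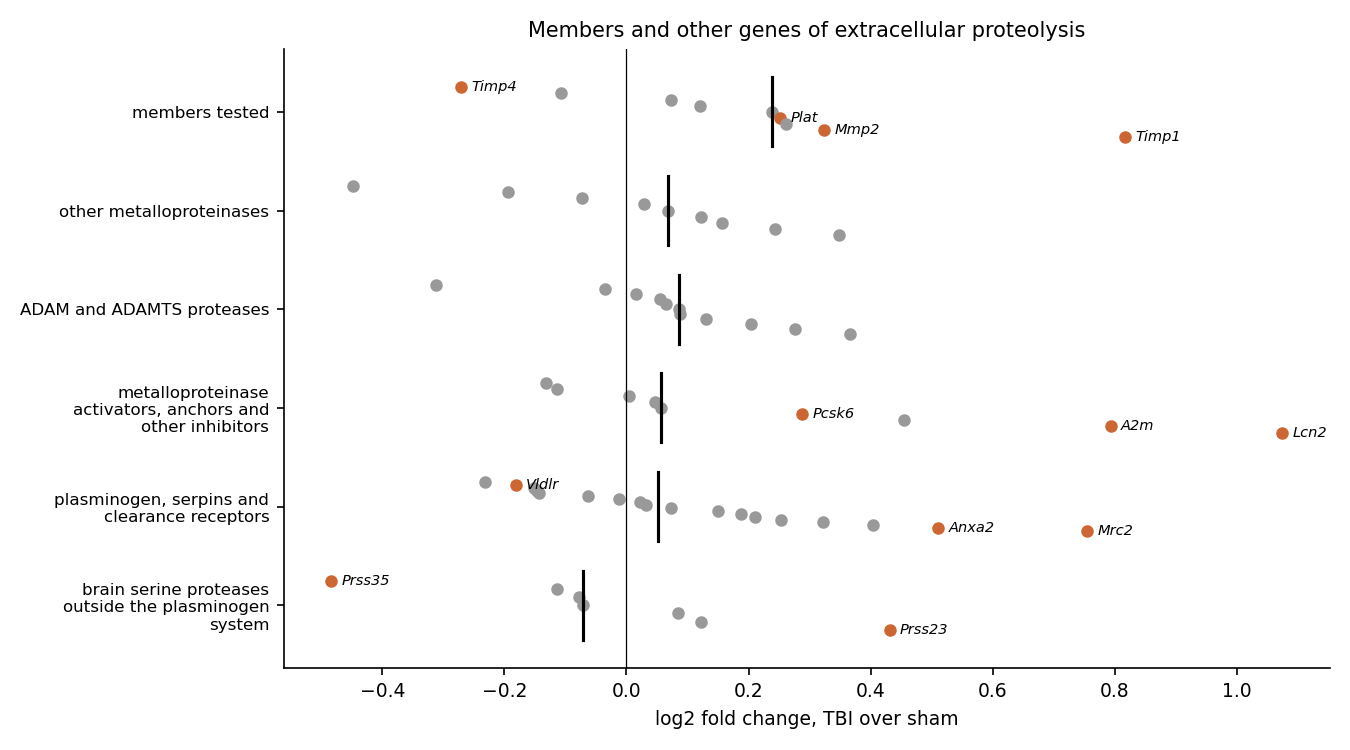
log2 fold change, TBI over sham, of the 9 tested members and of the 54 other tested genes by list, with 1 point per gene (its height within a list has no meaning); orange points, which are named, have an unadjusted p under 0.05 by edgeR, and black bars are list medians. There are 4 orange points among the members, 0 in the metalloproteinase and ADAM lists, and 8 in the other lists. Over all records tested, 7.89% had such a p.

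The rats of a group did not share one profile over the 9 tested members. TBI rat 2 was above the median of the 10 rats in 8 of 9 members, and sham rat 5 in 2 of 9. TBI rat 1 was the highest rat for Timp1, Timp3 and Plat and the lowest for Timp4. TBI rat 3 was above the median in 4 members and lay within the sham range for Timp2, Timp3, Mmp2, Mmp9, Mmp14, Plat and Plau. It was also the TBI rat with the lowest sum of reactive astrocyte markers, 1031 CPM, of which Gfap was 980. Sham rat 3, above the median in 6 members, was the sham rat with the highest sum, 1712 CPM, of which Gfap was 1628.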

How the data were processed

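Libraries were poly-A selected, 1 per rat, from 5 sham and 5 TBI rats, and read as short single reads. According to the study's methods and the submitters' processing notes, reads were aligned with BWA to the rat build RN4 and counted with a custom script. The values the authors deposited are raw, unnormalized read counts, 1 column per rat and 1 row per RefSeq record. The methods name Ensembl transcripts, and how this goes with the RefSeq records was not settled. The methods also give 3 control rats for messenger RNA where the labels give 5 sham rats, and the labels were followed. Symbols came from a RefSeq gene table of the build GRCr8, used for names and for which genes lie inside others. It named 54.2% of records. Unmapped reads, a median of 22.2% per library, and an unnamed row were left out.

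Records with a total under 44 counts, the 30th percentile, were removed, as in the study's methods, which left 22431. Groups, set by the labels, were tested against each other in edgeR 4.0.16 and R 4.3.3 (quasi-likelihood F test, robust estimation, TMM scaling), adjusted by Benjamini-Hochberg over all records. Exact permutation tests used log2 CPM (prior count 2). Alternatives were DESeq2 1.42.0, limma 3.58.1 with voom, edgeR's exact test, other scalings, no filter, summed records, a ribosomal RNA covariate, the data without sham rats 4 and 5, and leaving out each of the 10 rats. The test was tested on simulated data.

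All 10 members were named. Of the pathway lists, genes with an unadjusted p under 0.05 and the gene with most counts in each list were named, and other genes were named after their values were seen. For each tested member the 3 genes with the most similar pattern were sought, and 1 of these is not reported here. Members and lists were chosen with earlier results of these data known. Rats were numbered within groups in accession order, which pairs none of them. Transcript lengths were not used, so levels are not compared between genes. Counts without molecular identifiers are not independent molecules.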

Additional observations from a re-analysis of the deposited data

Results flagged for a closer look

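By Dixon's criterion for groups of 5, applied to the CPM of the 10 genes in sham and in TBI rats, 0 of 20 groups held an outlying rat, where chance gives about 1.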

How the results depend on the processing

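The count of members past an adjusted p of 0.05 was 0 in every fit run. The 4 members with an unadjusted p under 0.05 became 1, Timp4, with the ribosomal RNA covariate (4.42% of all records, against 7.89% in the main test) and 1, again Timp4, without sham rats 4 and 5 (5.60% of all records), and 2 to 6 over the fits that left out 1 rat (5.17% to 11.4% of all records): 2 without sham rat 4, sham rat 5, TBI rat 1 or TBI rat 5, and 6 without sham rat 3. Scaling by total counts gave 5, all higher in TBI rats, and 3788 records with such a p (16.9%). The members whose groups do not overlap numbered 0 under total count scaling, and 1 to 2 when 1 rat was left out, with Timp1 added without TBI rat 4. Of the pathway genes, 8 in the main test, 20 had an unadjusted p under 0.05 under total count scaling, and 5 (without TBI rat 1) to 13 (without sham rat 3) when 1 rat was left out. The log2 difference of Mmp9 ran from 0.0158 (without sham rat 2) to 0.725 (without sham rat 3). Directions turned for Timp4 (0.22) and Plau (0.43) under total count scaling, for Plau (0.0761) and Timp3 (-0.0641) with the covariate, and for Plau (0.0282) and Timp3 (-0.0360) without sham rats 4 and 5. Over the fits that left out 1 rat, log2 differences ran from -0.278 to 0.00982 for Plau, turning without sham rat 4, from -0.0116 to 0.152 for Timp3, turning without TBI rat 1, and from -0.0105 to 0.331 for Mmp14, turning without sham rat 1. Total count scaling moves the median of all records to 0.50, and the cause of the other shifts was not tested. No paired analysis was possible because the labels number the rats 1 to 10 and share no number between groups. Depth limits Plaur, with at most 5 counts per library. The members next in counts were Mmp9 and Timp1, with at most 39 and 85 per library, and the part of depth in their spread was not tested.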

Other observations

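The genes whose pattern over the 10 rats was most like that of a member were sought among 10711 symbols with a mean of at least 1 CPM. The correlations describe libraries that share depth and group, and the highest of so many values are large by selection. For Timp4 the closest was Gad1, which makes GABA in interneurons (Pearson r 0.94, Spearman rho 0.92, r 0.91 without the 2 rats farthest from the median), followed by Elovl4 and Gpn1 (r 0.93 and 0.92). Gad1 was itself lower in TBI rats, with a log2 difference of -0.46. It is on the study's list of altered genes for this model, so its direction is not independent evidence. For Timp1 the closest were Arhgef37, Pex5l and Nr2e1 (r 0.93, 0.92 and 0.92), and for Timp2 Lgals3bp, Slc16a3 and Gusb, each at r 0.95. The lysosomal enzyme Gusb and the galectin-binding Lgals3bp had log2 differences of 0.34 and 0.35. For Timp3 they included Zbtb7c and Slc30a10 (r 0.96 and 0.95).

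Mmp2 was closest to Dap (r 0.98), Kctd7 (r 0.94) and Cflar (r 0.93), Mmp14 to P2ry2 (r 0.94), Toe1 (r 0.93) and F3, tissue factor (r 0.89), and Mmp9 to Hsf1 (r 0.93), Repin1 (r 0.92) and Sprn (r 0.92). Plat was closest to Plscr4 (r 0.97), Ak7 (r 0.96) and Cnn3 (r 0.94), which had log2 differences of 0.64, 0.49 and 0.37, and Plau to Pde9a (r 0.97), Hic2 (r 0.94) and Pcdhgb8 (r 0.91).

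The ratio of Timp1 to Timp4 counts within a library does not depend on the scaling. It was chosen after the values were seen and is given with no test. It was 0.0750, 0.0582, 0.0641, 0.0404 and 0.0691 in sham rats 1 to 5 and 0.259, 0.152, 0.0930, 0.0712 and 0.106 in TBI rats 1 to 5. TBI rat 4 was below sham rat 1, and the other TBI rats were above every sham rat. The ratio of Plat to Timp4 counts ran from 1.84 to 2.49 in sham rats and from 2.42 to 4.51 in TBI rats, with TBI rat 3 the one that overlapped.

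Over the 36 pairs of tested members, 0 had a Benjamini-Hochberg adjusted p under 0.05 for Pearson's r in permutation tests (100000 permutations). The highest r was that of Timp2 and Mmp2, at 0.77 over 10 rats (permutation p = 0.00948, adjusted p = 0.171), with a Spearman rho of 0.64 (permutation p = 0.0539, adjusted p = 0.555) and r of 0.64 without the 2 rats farthest from the median of Timp2. Timp1 and Timp3 were close behind, at r 0.76 (permutation p = 0.00903, adjusted p = 0.171) and a Spearman rho of 0.77 (permutation p = 0.0130, adjusted p = 0.469). Their r was 0.42 without the 2 rats farthest from the median of Timp1. These correlations pool sham and TBI rats, so a group difference shared by 2 genes enters them. With the group means removed, r was 0.68 for Timp2 and Mmp2 and 0.86 for Timp1 and Timp3. The pairs of members were examined after the data had been seen.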
